A study of Arabidopsis thaliana with 12 samples.

Results

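After 1 h of darkness, RNA bound to epitope-tagged ribosomes was compared with total RNA from the same plant extracts, to ask which transcripts were over- or under-represented on ribosomes. The comparison used 4 of the 12 arrays of the series, 2 of polysomal RNA and 2 of total RNA, and each polysomal array was paired with the total RNA array that carries the same replicate number. All plants were 14 d old whole Arabidopsis seedlings of Col-0 that carried 35S:HF-RPL18B, a His6-FLAG-tagged large-subunit ribosomal protein, in every group, controls included. The dark group received 1 h of darkness that began in the middle of the light period. A light group stayed 1 h longer in light, and a reilluminated group had 10 min of light after 1 h of darkness. Both of these groups also had 2 polysomal and 2 total RNA arrays and served here to test whether a ratio differed from that in darkness and, in the same fit, to estimate the spread between extracts. The tag is driven by the near-constitutive CaMV 35S promoter, so the capture covers the cells in which that promoter is active, and no untagged control was used here.

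Capture of tagged ribosomes recovers messenger RNA that cytosolic ribosomes are reading, together with the ribosomes themselves. A transcript that loads ribosomes poorly stays in the total pool and is depleted from the captured pool, and a transcript of which nearly every copy is loaded is enriched. Chloroplasts and mitochondria have ribosomes of their own, which do not carry the tag. In plants moved from light to darkness, initiation of translation is known to drop broadly, and the transcripts of ribosomal proteins and of the photosynthetic machinery are among those that move off polysomes.

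Values are log2 expression after robust multi-array averaging (RMA). The ratio of a gene is its polysomal minus its total log2 value, and a ratio of -1 stands for a polysomal level 2-fold below the total level. RMA gives every array the same overall distribution, so a ratio is relative to the average transcript, and a drop in ribosome loading common to all transcripts would not appear. Of 22746 probe sets other than controls, 13355 genes were each represented by a probe set that lists no other gene, of which 13264 were nuclear, 69 chloroplast-encoded and 16 mitochondrion-encoded. The arrays had medians between 6.05 and 6.19, and their lower quartiles lay between 4.07 and 4.17, near which a level cannot be told from background. The dark arrays correlated at 0.993 within each RNA pool and at 0.973 to 0.977 between the pools. The replicates were separate biological experiments per the labels, and their ratios correlated at 0.847 across all probe sets.

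Among all probe sets, 3768 were enriched in dark polysomal RNA, 16.6% of those tested, and 3568 were depleted, 15.7% (limma, Benjamini-Hochberg adjusted p under 0.05, n = 2 extracts). Most of these ratios were small, and 324 enriched (1.42%) and 460 depleted probe sets (2.02%) also reached 2-fold. Among the 13264 nuclear genes, 2132 were enriched, or 16.1%, and 1768 were depleted, or 13.3%, with a median ratio of 0.03. With 1 dark extract left out, here and below, the remaining extract has no replicate, and its spread is taken to be that of the light and reilluminated extracts. On that basis the second dark extract alone gave 2096 enriched and 1949 depleted probe sets, and the first alone gave 2528 and 2470. In the scatter of the extracts the chloroplast-encoded genes stood apart from the nuclear genes, and the mitochondrion-encoded genes reached from the nuclear cloud to the upper end of the chloroplast range.

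**Figure D1:**
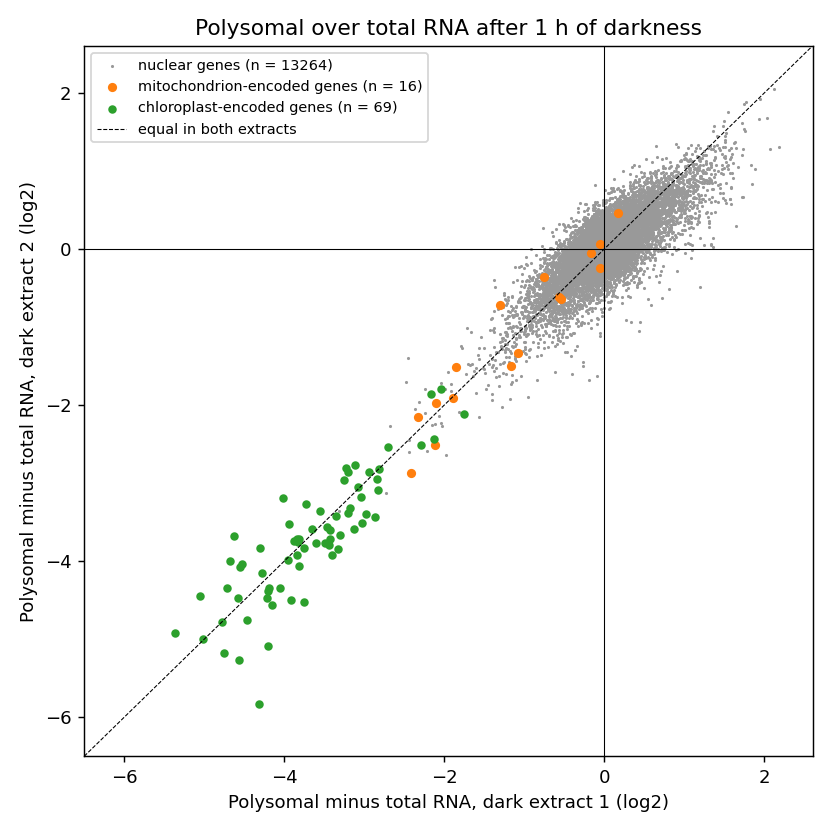
Polysomal minus total log2 value of each gene in dark extract 1 (x axis) and dark extract 2 (y axis), with nuclear genes in grey, mitochondrion-encoded genes in orange and chloroplast-encoded genes in green; the dashed line marks equal values. The 69 chloroplast-encoded genes lie far below 0 in both extracts, and the nuclear genes centre on 0.03.

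Chloroplast-encoded transcripts were depleted without exception: all 69 measured genes passed the test, against 13.3% of nuclear genes, and their median ratio was -3.66, a 12.7-fold depletion. The median was -3.73 in the first extract and -3.72 in the second, and all 69 ratios were below 0 in each extract. The median level of these genes was 11.04 and 11.21 in the total RNA of the 2 extracts and 7.20 and 7.12 in the polysomal RNA. The plastid genome encodes parts of the photosystems, of the cytochrome complex, of the ATP synthase and NADH dehydrogenase-like complex, and part of the plastid's own ribosomes and RNA polymerase. Genes of the plastid ribosome (rpl and rps, n = 15) had the lowest median, -4.20, followed by photosystem I (psa, n = 5) at -3.88 and the NADH dehydrogenase-like complex (ndh, n = 10) at -3.76. Genes of the plastid RNA polymerase (rpo, n = 4) had a median of -3.59 and those of the cytochrome complex (pet, n = 6) of -3.54. The ATP synthase (atp, n = 6) and photosystem II (psb, n = 15) had the highest medians, -3.29 and -3.27. These group ranges overlapped, with single genes from -4.97 to -3.02 in the ribosome group and from -4.27 to -2.02 in the photosystem II group.

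The lowest ratio was that of ndhE, a subunit of the NADH dehydrogenase-like complex. It read 9.80 and 10.00 in the 2 total RNA arrays and 4.44 and 5.08 in the polysomal arrays, a ratio of -5.14 ± 0.20 (SE, n = 2 extracts, limma adjusted p = 4.94e-10). The pools did not overlap, and the polysomal levels lay close to the background of the arrays. For petL, ndhG, rpl16 and accD the ratios were -5.07, -5.01, -4.97 and -4.92. The least depleted gene, ndhC of the same complex as ndhE, read 11.62 and 11.52 in total RNA and 9.58 and 9.73 in polysomal RNA, a ratio of -1.92 ± 0.12. Its pools did not overlap either, and its polysomal level was far above background. In 25 of the 69 genes the polysomal level was under 6, and in 16 under 5. Where the polysomal level is near background the ratio understates the depletion, so the order among the lowest genes is uncertain. For psbA and rbcL, which encode the D1 protein of photosystem II and the large subunit of Rubisco, the ratios were -3.19 and -3.15.

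In light the same 69 genes were all depleted as well, beside 17.0% of nuclear genes, with a median of -4.16, and after reillumination the median was -4.20. The ratio was less negative in darkness than in light by a called amount for 23 of the 69 genes and more negative for 1, rps14, whereas 2.65% and 4.15% of nuclear genes had a higher and a lower ratio in darkness. The dark and light ratios come from separate extracts and share no array. The median difference of the 69 genes between darkness and light was 0.42. The difference was 1.76 for psaA, a reaction-centre subunit of photosystem I, and 1.36 for psbB, a chlorophyll-binding subunit of photosystem II. The median polysomal level of these genes was 7.15 in darkness and 6.28 in light, and their median total level was 11.05 and 10.81. The higher ratio in darkness thus went with a higher level in polysomal RNA. The count of 23 fell to 3 without the second dark extract and to 4 without the second light extract, where the median difference was 0.50 and 0.29. Without the replicate pairing it was 8. Against reillumination 9 of the 69 genes had a higher ratio in darkness, and none had a lower one.

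**Figure D2:**
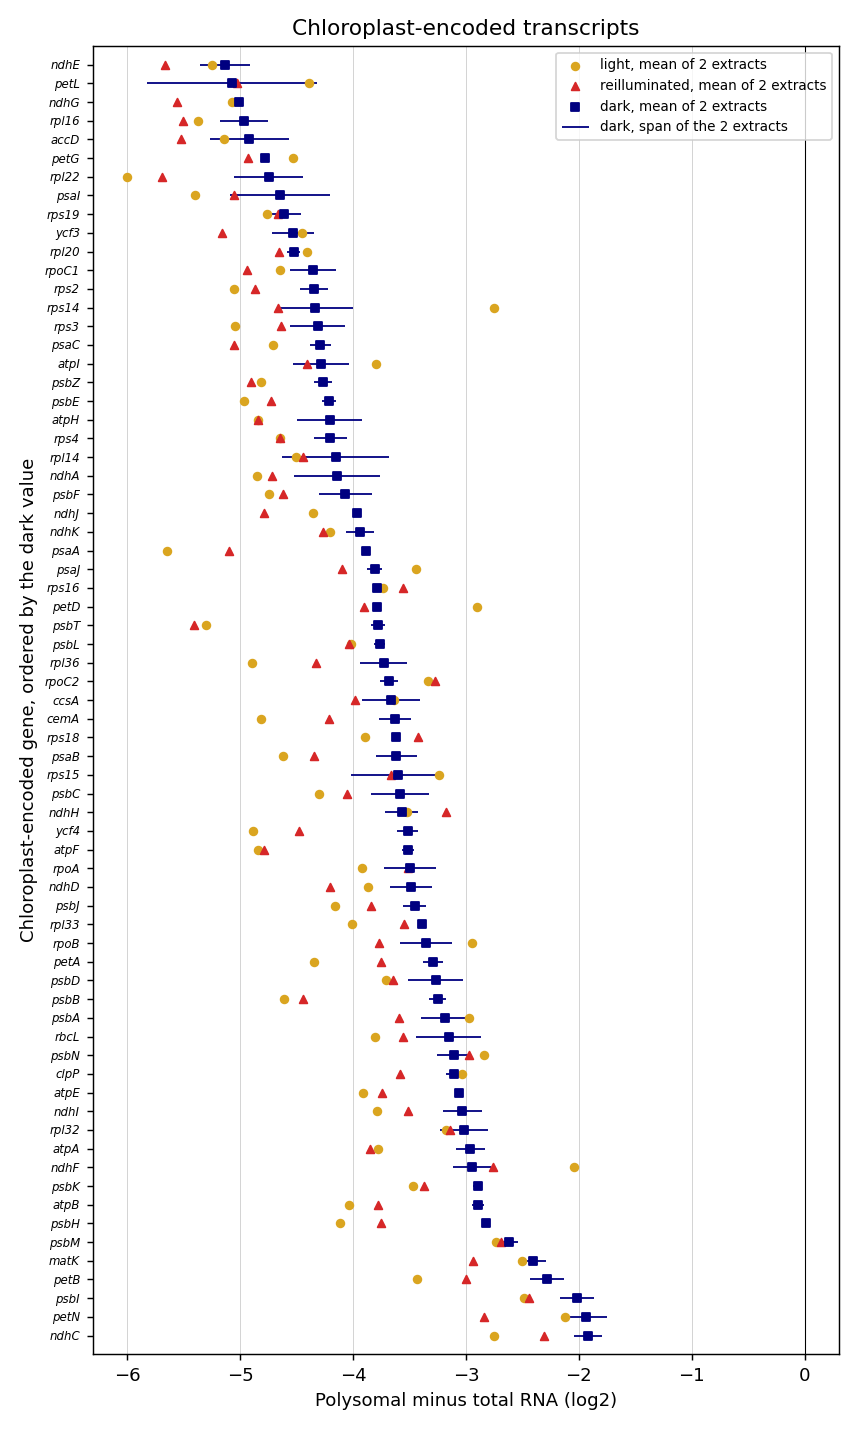
Polysomal minus total log2 value (x axis) of each of the 69 chloroplast-encoded genes (y axis, ordered by the dark value) in darkness (blue squares, with a line spanning the 2 extracts), light (yellow circles) and after reillumination (red triangles). All values are below 0, from -5.14 for ndhE to -1.92 for ndhC in darkness, and most light values lie to the left of the dark ones.

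Of 16 mitochondrion-encoded genes, 12 were depleted, beside 13.3% of nuclear genes, and none enriched, with a median of -1.11. In 11 of the 16 the total RNA level was under 6, which limits how low a ratio can read. The most depleted was nad4, a subunit of respiratory complex I, which read 8.07 and 8.40 in total RNA and 5.66 and 5.53 in polysomal RNA, a ratio of -2.64 ± 0.15 (SE, n = 2 extracts, limma adjusted p = 2.44e-08). Next came ccb382, an older name of the cytochrome c maturation gene ccmFN1, at -2.31, and cox1, the catalytic subunit of cytochrome oxidase, at -2.24. The pools of each of these 3 genes did not overlap. In light their ratios were -2.23, -1.74 and -2.10, and none differed from darkness by a called amount. The highest value belonged to nad2, which read 3.94 and 4.21 in total RNA and 4.11 and 4.66 in polysomal RNA and did not pass the test. In the chromosome 2 copy of the mitochondrial genome, 11 of 34 genes were depleted, beside 13.3% of nuclear genes, and none enriched. RNA from that copy and from the mitochondrial genome cannot be told apart on these probes. It held the lowest ratio of all loci counted as nuclear, -3.33 ± 0.18 for AT2G07741.

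Outside that copy, the most depleted nuclear genes by symbol included TPS-CIN, a terpene synthase that makes 1,8-cineole. It read 7.27 and 6.91 in total RNA and 4.83 and 4.46 in polysomal RNA, a 5.44-fold depletion (-2.44 ± 0.11, SE, n = 2 extracts, limma adjusted p = 2.24e-09). The drought-induced gene DI21 read 9.25 and 8.85 in total RNA and 7.27 and 6.20 in polysomal RNA, a ratio of -2.31 ± 0.14. The drought-induced DI19 read 12.31 and 12.79 in total RNA and 11.03 and 10.77 in polysomal RNA, a ratio of -1.65 ± 0.16. In none of these 3 genes did the pools overlap. The loci AT2G25590, AT5G25560, AT1G65370, AT3G57470, AT5G24620, AT3G01190 and AT1G30870, which carry no name in the tables used here, were depleted by between 7.62-fold and 4.43-fold. Further depleted genes were OASA2, of the cysteine synthase family, at -1.64, and GLX2-5, a glyoxalase of the methylglyoxal detoxification pathway, at -1.59. AAH, the allantoate amidohydrolase of purine breakdown, had a ratio of -1.47. The ratio was -1.22 for CaS, a calcium sensor of the thylakoid, and -1.17 for SPPA, a protease of the thylakoid. The very long genes ILA and SWEETIE, which span 18607 and 16684 bp, had ratios of -1.33 and -1.20.

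The most enriched nuclear genes by symbol included genes of desiccation and defence. LEA18, a late embryogenesis abundant protein that accumulates in drying tissue, read 7.30 and 5.85 in total RNA and 9.42 and 7.90 in polysomal RNA. Its pools were apart by 2.12 and 2.05 within the extracts, a 4.24-fold enrichment (2.09 ± 0.14, SE, n = 2 extracts, limma adjusted p = 1.13e-07), although its level differed between the extracts by more than 1 in both pools. AtLEA4-1, of the same class, read 6.29 and 5.58 in total RNA and 8.35 and 6.86 in polysomal RNA, a ratio of 1.67 ± 0.15. The defensin PDF2.1, a small cysteine-rich secreted peptide, had a ratio of 1.65 ± 0.12, from 7.46 and 5.98 in total RNA to 9.00 and 7.73 in polysomal RNA. In these 3 genes the pools did not overlap, and both pools were higher in the first extract than in the second. The call of PDF2.1 was lost without the replicate pairing. Of 9 genes of the low-molecular-weight cysteine-rich family (LCR), 3 were enriched, LCR67, LCR68 and LCR69, beside 16.1% of nuclear genes, and none was depleted. Only 3 of the 9 had a mean level of at least 6 in the higher dark pool. Unnamed loci, among them AT3G02480, AT1G67860, AT1G03020, AT1G24575 and AT1G63310, were enriched by between 3.82-fold and 3.47-fold.

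Other enriched genes had known roles in signalling and housekeeping. CYS1, a cystatin that inhibits cysteine proteases, read 9.82 and 9.95 in total RNA and 11.40 and 11.13 in polysomal RNA, a ratio of 1.38 ± 0.12. The pools of CYS1 were well apart in both extracts. CYTC-2, an isoform of cytochrome c, had a ratio of 1.27 and MSRB6, a methionine sulfoxide reductase, of 1.25. NRPB9B, a small subunit shared by RNA polymerases, had a ratio of 1.46, and CML30, a calmodulin-like protein, of 1.41. UPB1, a transcription factor of root growth, had a ratio of 1.15. All 3 measured genes of the rapid stress response list of 19 were enriched, beside 16.1% of nuclear genes. They were the zinc-finger repressor STZ (1.24), the calcium-binding CML38 (1.00) and the transcription factor WRKY22 (0.87). CML38 read 6.77 and 8.20 in total RNA and 8.16 and 8.81 in polysomal RNA, so its pools overlapped. Its call was lost without the replicate pairing. In light the ratios of CML38 and WRKY22 were 0.76 and 0.80. STZ read 7.38 and 7.85 in total RNA and 8.65 and 9.06 in polysomal RNA. The light-grown values of STZ were 5.94 and 5.89 in total RNA and 6.97 and 6.93 in polysomal RNA, so its level was higher in darkness in both pools while its ratio was 1.04 in light.

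Gene families that share a symbol prefix were tallied where 8 or more members were measured, which gave 28 families. The families described next were picked after their values were seen, and their counts stand beside 16.1% of nuclear genes enriched and 13.3% depleted. No gene with the prefix VPS, ATG, PRA or bZIP differed between darkness and light by a called amount. In light 6, 6, 9 and 7 genes of these families were enriched, beside 19.9% of nuclear genes. Of 10 VPS genes, 7 were enriched and none depleted, with a median ratio of 0.76. Most of the enriched ones encode subunits of the ESCRT machinery, which sorts membrane proteins into multivesicular bodies. VPS60.2 read 7.90 and 8.04 in total RNA and 9.24 and 9.13 in polysomal RNA, a ratio of 1.22 ± 0.12 (SE, n = 2 extracts, limma adjusted p = 5.38e-06). VPS24.1, VPS2.1, VPS60.1 and VPS46.2 followed at 1.05, 1.02, 0.91 and 0.89, and in each the polysomal level exceeded the total level in both extracts. VPS9B, VPS20.1 and VPS24.2 had ratios of -0.19, -0.12 and -0.01 and did not pass.

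Autophagy genes were also mostly enriched. Of 8 genes with the prefix ATG, 6 were enriched and none depleted, with a median of 0.63, against 0.72 in light. ATG8 proteins are the ubiquitin-like tags of autophagosome membranes, and ATG3 is the enzyme that attaches them. ATG8G read 6.97 and 6.88 in total RNA and 8.48 and 8.33 in polysomal RNA, a 2.79-fold enrichment (1.48 ± 0.12, SE, n = 2 extracts, limma adjusted p = 8.26e-07). ATG8D, ATG8H, ATG8E and ATG8F had ratios of 1.07, 1.02, 0.66 and 0.60, and ATG3 had 0.44. ATG8C and ATG8B, at 0.21 and 0.12, did not pass, and total and polysomal levels of ATG8C overlapped. With the second dark extract alone 3 of the 8 passed, and with the first alone 6.

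Of 11 genes for prenylated Rab acceptors (PRA), small membrane proteins of the secretory pathway, 8 were enriched, with a median of 0.42. PRA1.F1 was highest at 1.18, and 3 of the 11 passed with the second dark extract alone and 6 with the first alone. Of 9 PUB genes, which encode U-box ubiquitin ligases, 6 were enriched, with a median of 0.38. In light 4 PUB genes were enriched and 1 was depleted. PUB22, PUB23 and PUB24, a trio known to dampen immune signalling, had ratios of 0.64, 0.99 and 0.77. Of 14 bZIP transcription factor genes, 8 were enriched, with a median of 0.39, but 2 passed with the second dark extract alone and 5 with the first alone.

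The aldehyde dehydrogenase family (ALDH) was depleted: 6 of 8 genes passed, none was enriched and the median was -0.41. In light all 8 were depleted, beside 17.0% of nuclear genes, with a median of -0.71. The ratio of 1 ALDH gene was higher in darkness than in light by a called amount. ALDH10A8, which makes betaine-type solutes, read 10.18 and 9.95 in total RNA and 9.41 and 9.29 in polysomal RNA, a ratio of -0.72 ± 0.11. ALDH6B2, of valine breakdown, had -0.59. With either dark extract alone 3 of the 8 passed. Of 22 TBL genes, whose products acetylate cell wall polysaccharides, 7 were depleted and 2 enriched, with TBL37 lowest at -0.97. In light 8 TBL genes were depleted and 2 enriched. With the second dark extract alone 3 were depleted and 2 enriched, and with the first alone 3 and none. None of 14 SWEET sugar transporter genes passed, with ratios between -0.19 and 0.24. Only 5 of the 14 had a mean level of at least 6 in the higher dark pool.

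**Figure D3:**
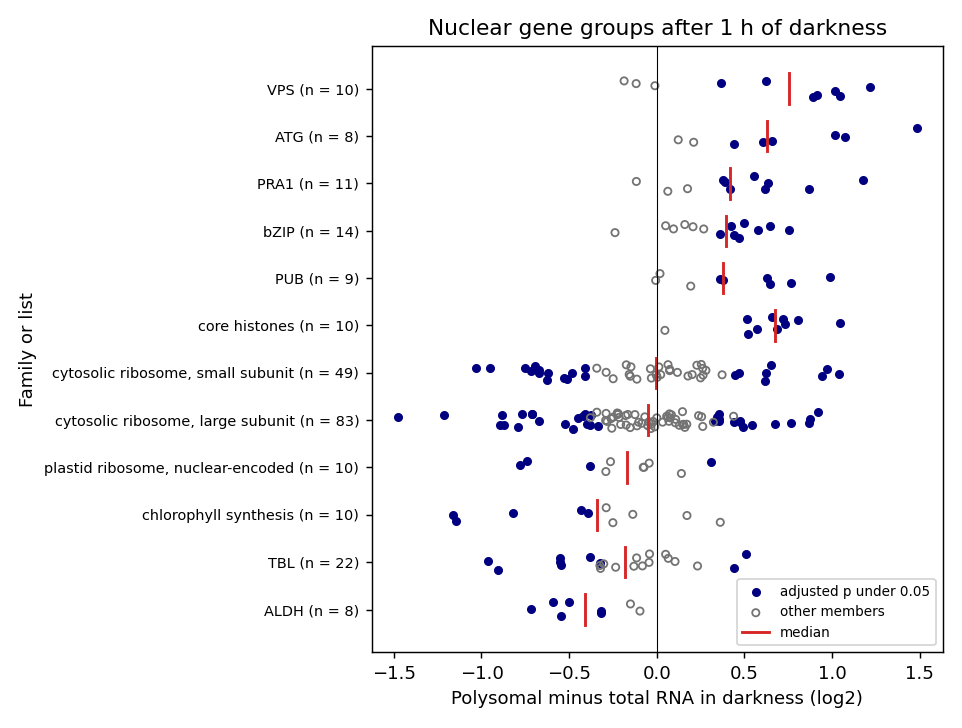
Dark ratio (polysomal minus total log2 value, x axis) of each member of 12 gene families or lists (y axis); filled blue points passed the test, open points did not, and red bars mark medians. VPS, ATG, PRA1, bZIP, PUB and core histone genes (all measured ones H2B) lie mostly above 0. ALDH genes all lie below it, and cytosolic ribosomal protein genes spread to both sides.

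Cytosolic ribosomal protein genes did not move as a block. Of 228 listed genes 132 were measured, 23 were enriched, or 17.4%, and 33 were depleted, or 25.0%, with a median ratio of -0.03. Of all nuclear genes 16.1% were enriched and 13.3% depleted, so the enriched share of the list was near that of nuclear genes. The large-subunit list had 15 enriched and 19 depleted of 83, and the small-subunit list 8 and 14 of 49. Among the small-subunit genes AT4G30800 read 7.21 and 7.46 in total RNA and 8.34 and 8.41 in polysomal RNA, a ratio of 1.04 ± 0.11. AT2G41840, of the same subunit, read 11.68 and 11.79 in total RNA and 10.71 and 10.70 in polysomal RNA, a ratio of -1.03 ± 0.11. The pools of either gene did not overlap, so members of 1 subunit lay on opposite sides of 0. In the large subunit AT3G06700 was enriched at 0.92 and AT3G14600 depleted at -1.21. With the second dark extract alone 9 were enriched and 22 depleted of the 132, and with the first alone 18 and 22.

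In light the same list had a median of 0.27, with 61 enriched genes (beside 19.9% of nuclear genes) and 14 depleted ones, and after reillumination the median was 0.15. The difference between darkness and light was called for 21 of the 132 genes, all of them lower in darkness, or 15.9%, beside 4.15% of nuclear genes. Against reillumination 8 genes were lower in darkness, or 6.06%, beside 3.20% of nuclear genes, and none was higher. The median polysomal level of the list was 10.17 in darkness and 10.66 in light, and the polysomal level was lower in darkness for 122 of the 132 genes. The median total level was 10.39 and 10.42. AT3G55170 of the large subunit had the greatest difference of the list, -1.87 ± 0.26 (SE, limma adjusted p = 0.00277). It read 8.06 and 8.27 in the polysomal RNA of light-grown plants and 6.66 and 6.97 in darkness, with no overlap. Its dark total RNA levels differed, at 7.13 and 8.29, and without the second dark extract neither its dark ratio (-0.47, adjusted p = 0.135) nor its difference from light (-1.44, adjusted p = 0.0513) passed. The count of 21 was 1 without the second dark extract, 8 without the first light extract and 2 without the second, while the median difference of the list stayed between -0.33 and -0.26.

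Fewer genes of the nuclear-encoded plastid ribosome had a named probe set of their own here. Of 10 measured of 34 listed, 1 was enriched and 3 depleted in darkness, and the median was -0.17, while it was 0.32 in light. The enriched gene, AT1G64510 at 0.31, did not pass when any of the 6 extracts was left out (adjusted p between 0.0554 and 0.256). AT1G29070, depleted at -0.38, did not pass without the first dark extract (-0.28, adjusted p = 0.248). The difference from light was called for 4 genes, all lower in darkness, beside 4.15% of nuclear genes. From reillumination it was also called for 4, all lower, beside 3.20% of nuclear genes. AT5G65220 read 11.12 and 11.51 in dark total RNA and 10.54 and 10.60 in dark polysomal RNA, a ratio of -0.74 ± 0.12. In light its polysomal levels were 11.70 and 11.86, above its total levels, and the difference between the ratios was -1.35 ± 0.16 (SE, limma adjusted p = 0.00228). The 4 calls were 1 without the second dark extract, 1 without the second light extract and 2 without the first. Of 6 ribosome biogenesis genes 4 were depleted and none enriched, with DIM1A, an rRNA methyltransferase, lowest at -0.80, and 2 passed with either dark extract alone. Of 7 translation factor genes 2 were enriched and 2 depleted, beside 16.1% and 13.3% of nuclear genes. Of these, AT2G04520 (0.69) and AT4G20980 (-0.52) did not pass without the first dark extract (0.33, adjusted p = 0.189, and -0.27, adjusted p = 0.398). AT5G19510 had a ratio of -1.05 and AT5G35680 of 1.10, and AT5G19510 differed between darkness and light by -0.71 ± 0.16, a call lost without the second dark extract (-0.67, adjusted p = 0.149) and without either light extract (-0.64 and -0.79).

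In the list of core histone genes, whose transcripts are made for DNA replication, all 10 measured genes were histone H2B genes. Of these, 9 were enriched, beside 16.1% of nuclear genes. Their median was 0.67, close to the medians of 0.69 in light and 0.65 after reillumination. HTB1 read 8.04 and 8.12 in total RNA and 8.90 and 8.87 in polysomal RNA, a ratio of 0.81 ± 0.12. No member of the list differed between darkness and light. With the second dark extract alone 4 passed and with the first alone 7. Of 5 measured genes with conserved upstream reading frames, which restrain translation of the main frame, 2 were enriched and none depleted. These were bZIP44 at 0.50, a call lost without the first dark extract (0.39, adjusted p = 0.103), and AT5G09460 at 0.71.

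Of 10 genes of chlorophyll synthesis, 5 were depleted and none enriched, with a median of -0.34, and 4 passed with the second dark extract alone and 3 with the first alone. CHLM, the methyltransferase of the magnesium branch, read 11.26 and 11.60 in total RNA and 10.24 and 10.29 in polysomal RNA, a ratio of -1.16 ± 0.12 (SE, n = 2 extracts, limma adjusted p = 5.44e-06). LIL3:2, a light-harvesting-like protein that holds chlorophyll synthesis enzymes at the membrane, read 11.03 and 11.14 in total RNA and 9.81 and 10.08 in polysomal RNA, a ratio of -1.14 ± 0.11. In both genes the pools lay apart by about 1. In light their ratios were -0.24 and -0.42, and the difference between darkness and light was -0.92 ± 0.16 for CHLM (limma adjusted p = 0.00898) and -0.72 ± 0.16 for LIL3:2 (limma adjusted p = 0.0184). Without the second dark extract these calls were lost (-0.78, adjusted p = 0.112, and -0.81, adjusted p = 0.104), as they were without the second light extract (-0.95, adjusted p = 0.0702, and -0.81, adjusted p = 0.0875). The call of LIL3:2 was also lost without the first dark or the first light extract (-0.64 in each case). CHLM also differed from its reilluminated ratio by -0.93 and LIL3:2 by -0.99. The close relative LIL3:1 had a dark ratio of 0.36 and did not pass, and PORB, a light-dependent protochlorophyllide reductase, had -0.39 in darkness and -0.46 in light. GSA1, CHLI2 and HEME2 of the same list were depleted in light, at -0.63, -0.54 and -0.53, and did not pass in darkness. None of them differed between darkness and light by a called amount. Among all nuclear genes 13.3% were depleted in darkness and 17.0% in light.

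Of 8 nuclear-encoded genes of the photosystems, antennae and plastid ATP synthase, 2 were depleted, LHCB4.1 and LHCB4.2 at -0.51 and -0.67. PSBY was enriched at 0.35, and these counts were near the nuclear shares of 13.3% and 16.1%. The calls of LHCB4.1 and PSBY were lost without the first dark extract (-0.36, adjusted p = 0.138, and 0.36, adjusted p = 0.136), and that of PSBY also without the second (0.33, adjusted p = 0.164). The 3 measured Calvin cycle genes, for Rubisco activase (RCA), phosphoribulokinase (PRK) and sedoheptulose-bisphosphatase (SBPASE), were depleted at -0.50, -0.49 and -0.43. None of the 3 passed without the first dark extract, where their ratios were -0.35, -0.24 and -0.27 (adjusted p between 0.148 and 0.337). All 3 were depleted in light too, and none differed between the conditions.

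Of 6 measured genes that respond to darkness and sugar starvation, 2 were enriched, ATL8, a RING ubiquitin ligase, at 0.81 and AKINBETA1, a subunit of the SnRK1 energy-sensing kinase, at 0.53. AKINBETA1 did not pass without the second dark extract (0.38, adjusted p = 0.158). MCCA, which takes part in leucine breakdown, was depleted at -0.61, and its call was lost without the first dark extract (-0.54, adjusted p = 0.0595). PPDK had -0.09 and did not pass. In light the ratios of ATL8 and AKINBETA1 were 0.46 and 0.40, and those of MCCA and PPDK were -1.11 and -0.55. No gene of this list differed between darkness and light by a called amount. Of all nuclear genes 16.1% were enriched and 13.3% depleted in darkness. Of 5 light signalling genes 2 were enriched, the transcription factor HYH at 0.47 and AT3G44450 at 0.53, and neither passed without the first dark extract (adjusted p = 0.0543 and 0.0784). HYH read 3.68 and 3.91 in dark total RNA and 4.16 and 4.38 in dark polysomal RNA, near background. AT3G44450 read 4.15 and 4.58 in dark total RNA, also near background, and 4.70 and 5.09 in dark polysomal RNA. Its total level in light was 7.20 and 7.86. Both HYH and AT3G44450 were also enriched in light, at 0.67 and 1.20. In this list 3 of the 5 genes had a lower ratio in darkness than in light by a called amount, beside 4.15% of nuclear genes. AT3G52740 had a ratio of 0.04 in darkness and 1.11 in light, a difference of -1.07 ± 0.18 (SE, limma adjusted p = 0.00756). Its dark levels lay between 4.54 and 4.84 in both pools, near background, which limits how far from 0 its dark ratio can read. Its call was lost without the second dark extract (-0.81, adjusted p = 0.0958) and without the second light extract (-1.09, adjusted p = 0.0695). AT3G44450 differed by -0.67, a call lost when any dark or light extract was left out (adjusted p between 0.0875 and 0.208). The third, COR27, had a dark ratio of -0.26, which did not pass, and a ratio 0.94 below that in light. Its total RNA level was 6.79 and 7.56 in darkness and 4.80 and 5.21 in light, and its polysomal level was 6.88 and 6.96 against 5.57 and 5.80. Levels of COR27 were thus higher in darkness in both pools, and more so in total RNA. Its difference was lost as a call without the second dark extract (-0.59, adjusted p = 0.178) and without either light extract (-0.85 and -1.03). The clock gene GI had a dark ratio of -0.26, which did not pass, and its ratio was higher in darkness than in light by 0.67 ± 0.16 (limma adjusted p = 0.0269). Its polysomal levels were alike, 8.10 and 8.18 in darkness and 8.13 and 8.11 in light, while total RNA read 8.49 and 8.30 against 9.13 and 8.96. Without the second dark extract the difference of GI was 0.54 (adjusted p = 0.211), and it did not pass without either light extract (0.59 and 0.75).

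Across the protein-coding nuclear genes the ratio followed the span of the gene, introns included. Genes under 1000 bp (n = 1460) were enriched in 22.1% and depleted in 4.04%, with a median ratio of 0.08. Genes from 1000 to under 2000 bp (n = 4097) had 24.2% and 8.40%, and genes from 2000 to under 3000 bp (n = 3513) had 15.5% and 15.7%. Of the 2474 genes from 3000 to under 5000 bp, 9.50% were enriched and 22.3% depleted. At 5000 bp and more (n = 652) the figures were 3.22% and 35.7%, with a median of -0.19. Among genes whose higher pool reached a level of 6, the medians of the 5 classes from shortest to longest were 0.54, 0.24, 0.02, -0.10 and -0.26. Short genes were thus more often enriched and long genes more often depleted in both extracts, though for the longest class the median was -0.28 in the first extract and -0.14 in the second. With the second dark extract alone 102 of the 652 longest genes were depleted, against 233 with both extracts and 182 with the first alone. Genes are not independent replicates, and a span stands in for transcript length only in part.

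The gradient was shallower in darkness. In light the shortest class had a median of 0.16 and the longest of -0.46, and after reillumination 0.13 and -0.41. Of the 652 longest genes 70 had a higher ratio in darkness than in light and 4 a lower one. Among all nuclear genes the shares were 2.65% higher and 4.15% lower. Of the 4097 genes from 1000 to under 2000 bp, 36 had a higher ratio and 292 a lower one. For the 1460 genes under 1000 bp the counts were 8 and 73. For genes under 2000 bp the lower calls came to 17 without the second dark extract, 24 without the second light extract and 176 without the first light extract. Without the second dark extract no gene of the longest class was called higher, without the second light extract 1 was and without the first light extract 15 were, while the median difference of the class stayed positive, between 0.19 and 0.33. The spread of ratios over all probe sets was also smaller in darkness, with standard deviations of 0.50 and 0.48 in the 2 extracts against 0.56 and 0.55 in light.

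**Figure D4:**
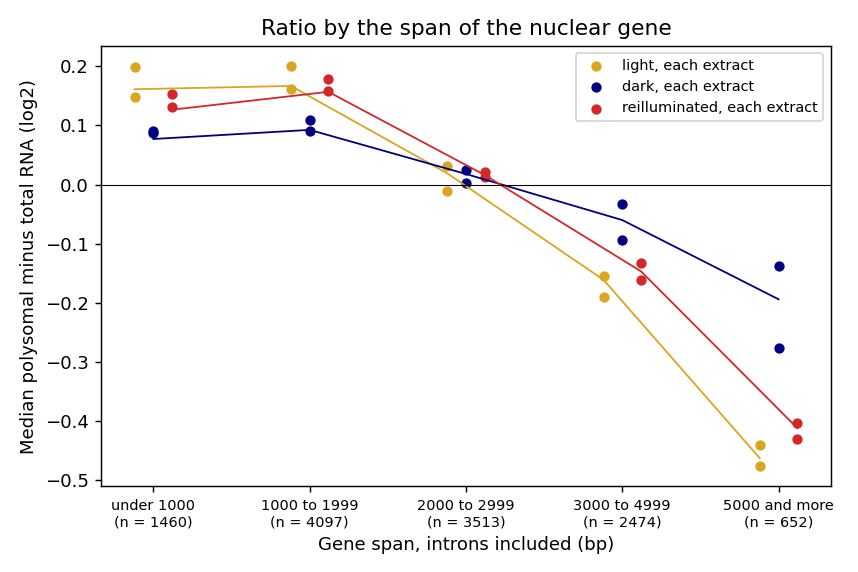
Median polysomal minus total log2 value (y axis) of nuclear protein-coding genes in 5 classes of gene span (x axis, with the number of genes) in light (yellow), darkness (blue) and after reillumination (red); points are the single extracts and lines join the condition medians. The lines fall from short to long genes in all 3 conditions, from 0.08 to -0.19 in darkness and from 0.16 to -0.46 in light.

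Over the nuclear genes the dark ratio correlated with the light ratio at 0.730 and with the reilluminated ratio at 0.722, a description across 13264 genes. Of the 2132 enriched nuclear genes 1535 were also enriched in light, or 72.0% of the dark set and 58.3% of the light set. Of the 1768 depleted ones 1119 were depleted in light, or 63.3% and 49.7%. In 64 genes the call went from enriched in light to depleted in darkness, and in 20 the other way. The difference itself was called for 351 nuclear genes with a higher ratio in darkness (2.65%) and 550 with a lower one (4.15%). Against reillumination the counts were 140 (1.06%) and 425 (3.20%), and over all probe sets 341 (1.50%) and 661 (2.91%). The latter were 2 and 42 without the second dark extract, 15 and 139 without the second reilluminated extract and 119 and 322 without the first. Over all probe sets, 896 were higher (3.94%) and 838 lower (3.68%) than in light. That split turned to 541 and 1052 with each array centred on its median. These counts rest on single extracts: without the second dark extract 9 and 29 probe sets were called, without the second light extract 19 and 51, and without the first light extract 222 and 395. Without the replicate pairing 76 and 171 were called. Leaving out the first dark extract lowered the counts less than any of these, against light and against reillumination alike.

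The nuclear genes described next were called in the same direction against light and against reillumination, 320 with a lower and 95 with a higher ratio in darkness, and both comparisons share the dark extracts. Among those with a symbol, ULT1, a regulator of floral meristems, had a dark ratio 1.15 below that in light and 0.97 below that after reillumination. LSM3B, of the RNA-binding LSM ring, read 8.15 and 8.55 in dark total RNA and 7.67 and 7.84 in dark polysomal RNA, and in light 8.07 and 7.97, and 8.34 and 8.80. Its dark ratio was -0.60 and its light ratio 0.55, a difference of -1.15 ± 0.19 (SE, limma adjusted p = 0.00756). Dark polysomal levels of LSM3B thus lay below dark total levels, whereas light polysomal levels lay above light total levels. STOMAGEN, the peptide that promotes stomata, read 8.34 and 9.26 in dark total RNA and 7.24 and 7.59 in dark polysomal RNA. Light-grown plants had total levels of 7.89 and 8.34 and polysomal levels of 7.46 and 8.17, and the difference was -1.08 ± 0.20 (SE, limma adjusted p = 0.011). MED6, a subunit of the Mediator complex, and BSH, a subunit of SWI/SNF chromatin remodelling complexes, had differences of -1.06 and -1.02. SCL21, a GRAS transcription factor, CUTA, CYN, the enzyme cyanase, and ATOEP16-4, of a family of plastid outer envelope channels, differed from light by -0.98, -0.95, -0.94 and -0.96. CYN read 9.75 and 9.64 in dark polysomal RNA and 10.47 and 10.45 in light, with total levels between 9.62 and 9.87 in both conditions.

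Higher in darkness than in both other conditions was GTR1, a glucosinolate transporter, which read 6.75 and 6.76 in dark polysomal RNA and 6.16 and 6.48 in light. Its total levels were 6.70 and 6.65 in darkness and 6.95 and 7.22 in light, and the ratio differed by 0.85 ± 0.16 (SE, limma adjusted p = 0.011). LPR2, a ferroxidase of the root response to low phosphate, read 8.44 and 8.82 in dark polysomal RNA and 7.84 and 7.95 in light, with total levels between 8.66 and 8.89. Polysomal levels of both genes did not overlap between the conditions. MOL1, a receptor-like kinase of secondary growth, SDH1-1, the flavoprotein of succinate dehydrogenase, GH9C2, an endoglucanase, and SBT4.12, a subtilase, differed from light by 0.74, 0.74, 0.74 and 0.72. SBT4.12 was still depleted in darkness, at -0.83, against -1.55 in light. Without the second dark extract none of these 6 genes, of the 9 lower ones or of COR27 passed, though the differences from light stayed between -1.05 and -0.59 for the lower ones with COR27 and between 0.54 and 0.82 for the higher ones. Without the second light extract none passed either, with differences from -1.16 to -0.79 and from 0.71 to 0.88.

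**Figure D5:**
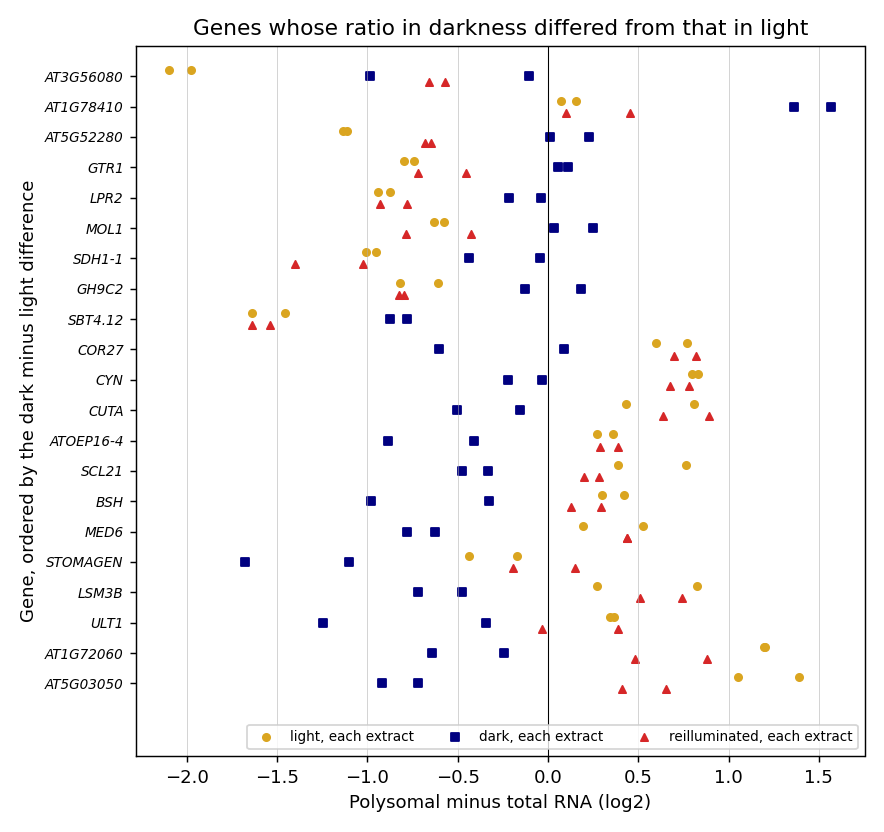
Polysomal minus total log2 value (x axis) in each extract of light (yellow circles), dark (blue squares) and reilluminated seedlings (red triangles) for 21 genes (y axis, ordered by the dark minus light difference). Lower genes such as LSM3B have dark values left of both other conditions, and upper genes such as LPR2 have dark values to the right.

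Among nuclear genes, apart from AT3G55170, the greatest differences from light belonged to loci without a name in the tables used here. AT5G03050 had a ratio of -0.82 in darkness and 1.22 in light, AT1G72060 had -0.44 and 1.20, and AT1G78410 had 1.47 and 0.11. AT1G78410 read 4.11 and 4.63 in dark total RNA and 5.48 and 6.20 in dark polysomal RNA, while all its other levels lay between 3.84 and 4.34. AT1G72060 was at 9.63 and 9.53 in dark total RNA and at 7.05 and 6.16 in light. In polysomal RNA it was at 9.39 and 8.89 and at 8.24 and 7.36, so its level was higher in darkness in both pools and more so in total RNA. AT5G52280 and AT3G56080 had ratios higher in darkness by 1.25 and 1.49, the latter with dark ratios of -0.98 and -0.10 in the 2 extracts.

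Few markers of single cell types were measured. The root hair expansins EXPA7 and EXPA18 were both depleted, at -0.98 ± 0.14 and -1.26 ± 0.17, with ratios of -1.11 and -0.94 in light. EXPA7 read 5.42 and 5.72 in total RNA and 4.55 and 4.62 in polysomal RNA, the latter near background. The guard cell factor FMA and the shoot meristem peptide gene CLV3 had ratios of -0.21 and -0.06 and did not pass, and CLV3 was at background in both pools. In levels of whole-seedling RNA, fewer cells of a type and less of an RNA per cell cannot be told apart. The ratio compares both pools of the same extract, and how evenly cell types carried the tag was not tested. No gene of the marker lists for endodermis, epidermis, phloem, xylem or root nutrient uptake had a probe set of its own here, and neither did any listed splicing regulator. Of 983 loci annotated as pseudogenes, 10 were enriched (1.02%) and 15 depleted (1.53%), beside 16.1% and 13.3% of all nuclear genes. Differences between the 3′ and 5′ control probes ranged from 3.78 to 4.34 for actin and from 0.90 to 1.25 for GAPDH over the 4 dark arrays, with the ranges of the pools overlapping.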

How the data were processed

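Total RNA of clarified extracts and RNA eluted from anti-FLAG beads were hybridised to ATH1 arrays, per the labels' protocols. The deposited values are log2 expression, made by the authors with RMA in the affy package, per the submitters' processing notes; detection calls were not used here. Polysomal minus total log2 values were taken within each extract (same condition and replicate number). The protocols describe both pools as coming from 1 clarified extract, and deviations from group means of same-numbered arrays correlated at 0.295 to 0.486. limma 3.58.1 in R 4.3.3 fitted 3 condition means to the 6 extracts (residual df 3, prior df 10.9), with Benjamini-Hochberg adjustment over 22746 probe sets. SE values come from that fit. A gene was represented by its least cross-hybridising probe set, then the brightest, and 13436 of 13513 single-gene probe sets matched the TAIR10.1 gene table, which also gave span and biotype. A further 503 probe sets list several genes and 8730 are unnamed here. Fits were tested on simulated data. Named genes were the 12 most enriched and 12 most depleted nuclear genes, organelle extremes, up to 3 per list and direction, 8 preset genes and the 3 greatest differences from light in each direction. Named after their values were seen were the 15 genes with a symbol furthest from 0 in each direction, the 10 lowest and 6 highest called against both other conditions, family members and further list members. The members, lists and rules were chosen with earlier results of these data known. Gene span replaced the protein length classes planned, for which no protein table was used here. Results of 1 gene family are not reported here. Alternatives changed pairing, scaling, filter, prior, probe set choice and the extracts included.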

Additional observations from a re-analysis of the deposited data

Results flagged for a closer look

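In 39 named genes the dark ratio differed from the light ratio by the limma test of the difference (adjusted p under 0.05). Values are dark minus light on the log2 scale, and no explanation was tested. Among translation genes they were -1.87 for AT3G55170, -0.75 for AT3G14600, -1.35 for AT5G65220, -0.71 for AT1G29070, -0.61 for AT2G43030, -0.58 for AT2G32220 and -0.71 for AT5G19510. The chlorophyll synthesis genes CHLM and LIL3:2 had -0.92 and -0.72, the light signalling loci COR27 and AT3G44450 had -0.94 and -0.67, and the clock gene GI had 0.67. Ratios lower in darkness were also those of AT5G03050 (-2.04), AT1G72060 (-1.64), ULT1 (-1.15), LSM3B (-1.15), STOMAGEN (-1.08), MED6 (-1.06), BSH (-1.02) and SCL21 (-0.98). ATOEP16-4 (-0.96), CUTA (-0.95), CYN (-0.94), AT2G07751 of the chromosome 2 copy (-0.82), GLX2-5 (-0.76), ATIM (-0.71) and AAH (-0.64) followed. Ratios higher in darkness were those of AT3G56080 (1.49), AT1G78410 (1.36), AT5G52280 (1.25), GTR1 (0.85), chloroplast-encoded ndhC (0.83), LPR2 (0.78), MOL1 (0.74), SDH1-1 (0.74), GH9C2 (0.74), SBT4.12 (0.72), UPB1 (0.59) and AT1G19020 (0.59). Of the 39 calls, 34 were lost without the second dark extract, 32 without the second light extract and 29 without the replicate pairing, and 3 held under all alternatives.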

How the results depend on the processing

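Of 112 named genes called in the dark ratio, 84 passed under all alternatives run; 18 were lost without the first dark extract, 11 without the second and 9 without the replicate pairing. No called result changed sign. Asking for 2-fold as well left 324 enriched and 460 depleted probe sets in darkness, 37 higher and 138 lower against light, and 11 and 154 against reillumination. Leaving out 1 extract gave 2096 to 3765 enriched and 1949 to 3554 depleted probe sets in darkness, 9 to 811 higher and 29 to 805 lower against light, and 2 to 295 and 42 to 602 against reillumination. Without the pairing of same-numbered arrays (no replicate block) 2648 were enriched and 2691 depleted in darkness, but 76 were higher and 171 lower against light, and 33 and 193 against reillumination; a block by number gave 3746 and 3557, 860 and 852, and 370 and 716. Centring each array on its median cut the higher calls to 541 against light and 215 against reillumination, which moved the share of higher calls from 51.7% to 34.0% and from 34.0% to 19.4%; centring on the nuclear median gave 36.9% and 24.8%. Against reillumination a mean level of at least 5 gave 532 higher calls and an intensity trend with a robust prior 607. The chloroplast median was -3.62 and -3.65 under these centrings and -3.73 to -3.66 with 1 extract left out. The mitochondrial median was -2.07 with the level filter, which keeps 6 genes, and -1.12 to -1.03 with 1 extract left out. The median of cytosolic ribosomal protein genes was 0.011 with arrays centred, -0.11 with the filter and -0.068 to -0.035 with 1 extract left out. With 2 extracts per condition, 2 dark arrays per pool and no detection calls used, ratios of dim transcripts are bounds at most, and a change common to all transcripts would not show.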
